A study of Homo sapiens with 7 samples.

Results

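The A2 bins are the 50 kb segments of the genome that carry the name A2 in the clusters deposited with the Hi-C library of untreated DLD-1 cells. They were taken as all bins inside the intervals named A2 in the deposited cluster list of the untreated DNMT1-AID library, matched by chromosome and start to the deposited table of k-means codes. The rule gave 12091 bins, or 604.55 Mb, of 46042 clustered bins on the autosomes. This was 26.3% of the clustered bins (95% exact binomial interval 25.9% to 26.7%, counting error only). The other names were A1 with 3261 bins, V+VI with 13454, B2/B3 with 16954 and B4 with 282. The input of the clustering is not given in the sources used here. It may be these same contacts, so the position of A2 in the clusterings is a description. No test is made on the members.

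Hi-C ligates DNA fragments that are near each other in fixed nuclei, and each sequenced ligation product counts as a contact. Human chromosomes separate into active A and inactive B compartments, and finer maps split each into subcompartments. In human lymphoblastoid cells the A1 and A2 subcompartments are both gene-rich and active, with longer genes and later replication in A2. DNA methylation, placed by DNMT3A and DNMT3B and copied after replication by DNMT1, is dense across most of the genome and low at promoters rich in the dinucleotide CpG.

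DLD-1 is an established human colorectal adenocarcinoma line. The study made 7 Hi-C libraries with an Arima kit, 1 for each group. All carried DNMT1-AID, a DNMT1 fused to an auxin-inducible degron that leads to its degradation when auxin is added. The DNMT1-AID libraries came from cells given auxin for 4 d, auxin for 10 d, auxin for 4 d followed by 4 d of washout, and no auxin. The libraries titled as DNMT3B knockout came from cells given auxin for 4 d, auxin for 10 d and no auxin. The genotype label of the untreated knockout library names only DNMT1-AID, and it was grouped by its title. Whether a line was 1 clone was not stated in the sources used here. No library lacks the degron, and the effects of auxin itself and of DNMT1 loss cannot be told apart. The contact tables hold no expression, so the cell type and the loss of either enzyme could not be checked. The libraries held 27371750 to 222874506 contacts, with the washout library lowest and 4 d of auxin in DNMT1-AID cells highest. This count leaves out contacts under 100 kb apart within a chromosome. Contacts between chromosomes that involve Y or mitochondrial DNA are also left out. With 1 library a group, no difference between groups was tested. The clusters are those deposited for the untreated DNMT1-AID library alone, which held 114828033 contacts by the same count.

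The sequences of 5 promoters in A2 are given as examples and do not represent A2 start sites as a whole. Most of them are poorer in CpG than the typical A2 promoter described below. Each is the 250 bases before the outermost annotated start of a gene, from RefSeq on GRCh38.p14, read 5′ to 3′ on the gene's strand, with CpG dinucleotides in capitals. DNMT3A, the methyltransferase that acts on unmethylated DNA, lies at chr2:25342591-25342840 on the minus strand and had 12 CpG. H2AC1, a replication-dependent histone H2A gene, lies at chr6:25726563-25726812 on the minus strand and had 11 CpG. HOXD4, a homeobox gene of body patterning, lies at chr2:176151300-176151549 on the plus strand and had 4 CpG. BCL9, a co-activator of beta-catenin, lies at chr1:147541251-147541500 on the plus strand and had 3 CpG. MUC13, a membrane mucin of the gut epithelium, lies at chr3:124934752-124935001 on the minus strand and had 5 CpG. BCL9 and MUC13 are the first A2 members by position of the Wnt and colon epithelium lists among genes with a matched promoter sequence. H2AC1 and HOXD4 were chosen after the shares of their lists were seen.
DNMT3A: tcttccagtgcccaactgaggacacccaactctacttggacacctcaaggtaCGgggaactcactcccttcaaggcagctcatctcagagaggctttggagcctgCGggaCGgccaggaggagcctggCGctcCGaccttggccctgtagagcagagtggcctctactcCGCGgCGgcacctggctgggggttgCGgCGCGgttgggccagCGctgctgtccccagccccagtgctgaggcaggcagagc
H2AC1: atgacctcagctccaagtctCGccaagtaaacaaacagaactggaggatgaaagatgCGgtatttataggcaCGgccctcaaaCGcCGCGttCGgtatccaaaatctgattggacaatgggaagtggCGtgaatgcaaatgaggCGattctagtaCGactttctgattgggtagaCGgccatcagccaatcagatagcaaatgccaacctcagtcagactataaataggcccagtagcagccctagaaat
HOXD4: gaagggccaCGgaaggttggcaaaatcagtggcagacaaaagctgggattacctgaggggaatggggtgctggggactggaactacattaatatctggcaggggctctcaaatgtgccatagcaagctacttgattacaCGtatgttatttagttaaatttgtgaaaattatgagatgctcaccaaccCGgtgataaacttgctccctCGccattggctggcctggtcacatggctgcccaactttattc
BCL9: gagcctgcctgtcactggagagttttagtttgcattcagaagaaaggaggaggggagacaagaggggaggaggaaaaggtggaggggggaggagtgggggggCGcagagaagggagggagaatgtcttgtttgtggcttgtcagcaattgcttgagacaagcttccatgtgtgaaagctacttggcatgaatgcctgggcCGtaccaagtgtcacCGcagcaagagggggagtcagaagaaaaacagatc
MUC13: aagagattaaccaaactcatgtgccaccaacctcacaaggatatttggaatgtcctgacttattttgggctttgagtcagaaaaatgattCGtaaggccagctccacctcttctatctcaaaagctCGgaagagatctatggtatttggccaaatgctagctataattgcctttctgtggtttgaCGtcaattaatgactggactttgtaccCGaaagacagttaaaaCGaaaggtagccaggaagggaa

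A2 bins were spread over 21 of the 22 autosomes in the table. Chromosome 13 had no clustered bin, and 19.9% of the table's 57509 bins were unclustered, among them the first 41.75 Mb of chromosome 1. Statements on A2 therefore cover the clustered bins only. On chromosome 15 A2 made up 41.2% of the clustered bins, on chromosome 22 37.7% and on chromosome 17 35.8%. The lowest shares were 17.2% on chromosome 4, 20.8% on chromosome 7 and 21.3% on chromosome 19.

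Among the 38 chromosome arms with at least 100 clustered bins the A2 share ran from 14.8% to 47.1%, with a median of 25.3%. The highest were 18p with 47.1%, 9q with 44.6%, 15q with 41.2%, 20q with 40.4% and 10p with 39.3%. The lowest were 5p with 14.8%, 8q with 15.8%, 11q with 16.5%, 4q with 16.5% and 19p with 17.7%. High A2 arms included arms with and without A1. There was no A1 bin on 18p or 10p, whereas A1 held 23.9% of 20q. Arm 19p, low in A2, was 59.5% A1. Across the 38 arms the Spearman correlation of the A2 share was 0.21 with the A1 share and -0.35 with arm length. These arms come from 1 clustering, and shares of one arm sum to 100%, so the correlations are descriptions only.

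**Figure D1:**
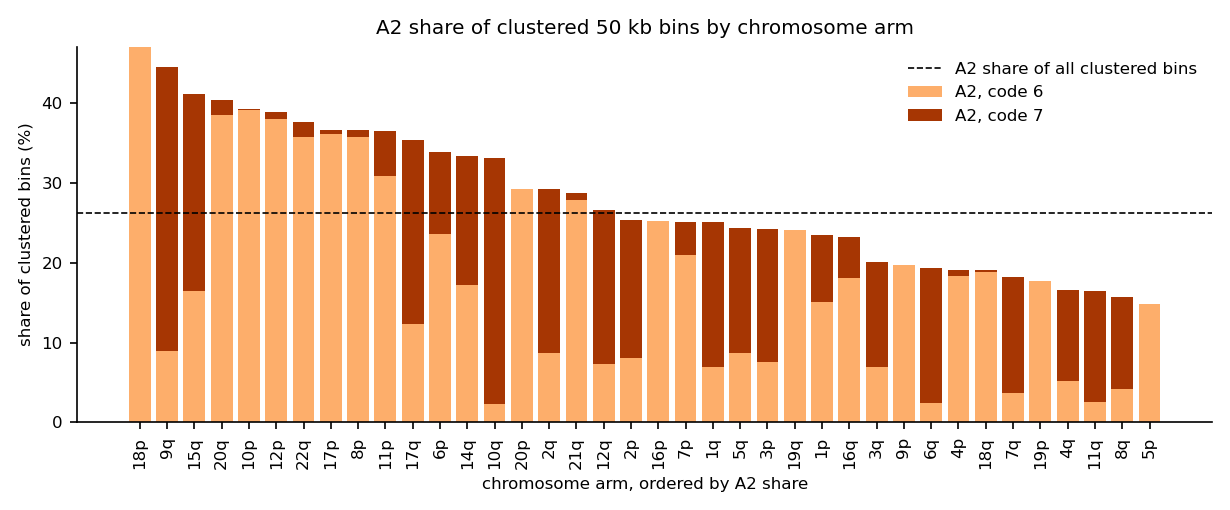
Share of clustered 50 kb bins named A2 (y axis, percent) in each of 38 chromosome arms (x axis, ordered by share). Light bars are bins with code 6 and dark bars bins with code 7 of the clustering into 9, and the dashed line is the share over all clustered bins, 26.3%. Arm 18p is highest at 47.1% and 5p lowest at 14.8%, and 7 arms hold no code 7.

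The A2 name joins 2 codes of the deposited clustering into 9 clusters, and the codes lay at different distances from the centromere. Code 6 held 6144 A2 bins (50.8%) at a median of 20 Mb from the centromere, and code 7 held 5947 (49.2%) at a median of 67.5 Mb. Of the A2 bins under 20 Mb from the centromere 2.38% had code 7. The share was 45.6% between 20 and 60 Mb and 98.9% from 60 Mb on. Code 7 was absent on 7 arms, among them 18p, 19p and 19q, and made up under 10% of A2 on 16. On 9q it made up 80.0% of A2 and on 10q 93.3%. The split was not confined to A2. The V+VI codes had medians of 23.25 Mb and 72.5 Mb, and the B2/B3 codes had medians of 19.95, 50.45 and 85.9 Mb. In 3 of the 5 names the codes thus differed in median distance from the centromere, whereas A1 and B4 have 1 code each.

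Along the arm A2 was spread more evenly than A1. With each arm cut into 10 equal steps from the centromere to the end, the A2 share of clustered bins lay between 21.8% and 30.8%. It was 26.1% in the first step and 23.9% in the last. The A1 share was 1.11% in the first step and 17.3% in the last. Within 10 Mb of an arm end lay 14.3% of A2 bins, against 36.0% of A1 bins, 11.2% of V+VI bins and 13.7% of all clustered bins. The median A2 bin lay at 0.537 of the arm length from the centromere, against 0.519 for all clustered bins. In Mb the order was the opposite, with 36.7 Mb for A2 and 38.85 Mb for all clustered bins, so no shift of A2 toward either end is stated.

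**Figure D2:**
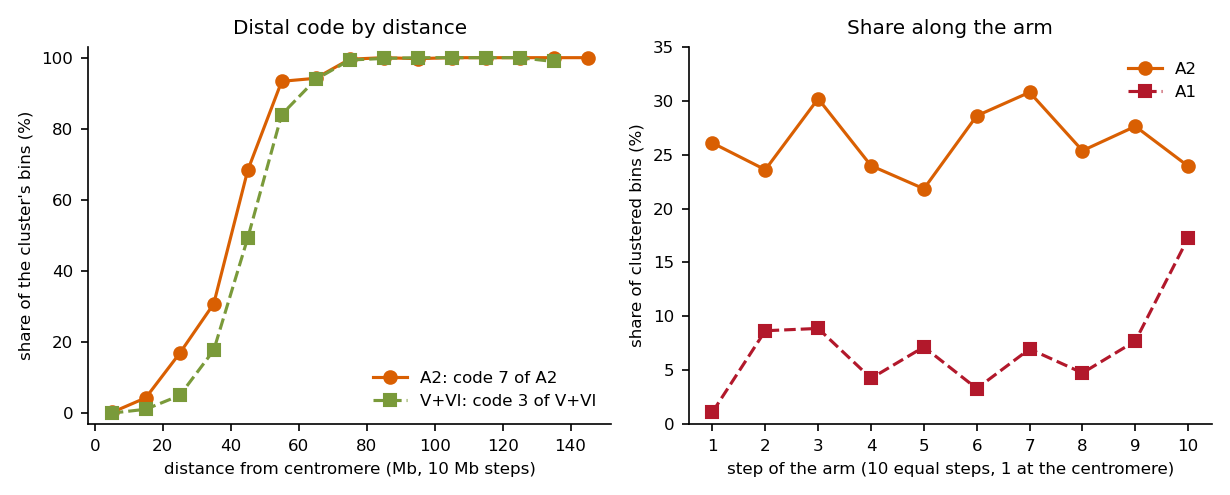
Left, share of A2 bins with code 7 and of V+VI bins with code 3 (y axis, percent) by distance from the centromere in 10 Mb steps (x axis, Mb). Right, share of clustered bins named A2 and A1 (y axis, percent) in 10 equal steps of the arm counted from the centromere. Code 7 is 0.262% of A2 in the first 10 Mb and 100% in the step that starts at 80 Mb, and the A2 share along the arm stays between 21.8% and 30.8%.

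Neighbouring A2 bins formed 1411 runs, most of them short, while most A2 bins lay in long runs. A run is a stretch of adjacent A2 bins with either code. The median run was 2 bins (100 kb) and the upper quartile 9 bins. Single bins made up 558 runs (39.5%) but 4.62% of A2 bins. The 182 runs of 1 Mb or more (12.9%) held 62.1% of A2 bins, and the median A2 bin lay in a run of 28 bins. In A1 runs of that length held 53.6% of bins, in V+VI 29.4%, in B2/B3 65.9% and in B4 none. Of the 1411 runs, 115 (8.15%) held both codes. The deposited list breaks these and so counts 2010 A2 intervals.

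The longest A2 run covered 6.4 Mb on 10q, at chr10:87500001-93900000, with 52 protein-coding genes. It holds the death receptor gene FAS, the interferon-induced IFIT genes and the mitotic kinesin gene KIF11. On 14q a run of 5.85 Mb at chr14:49600001-55450000 held 52 genes, among them BMP4, a secreted growth factor, and SOS2, an exchange factor for RAS. On 2q a run of 5.85 Mb at chr2:169350001-175200000 held 43 genes, among them ITGA6, an integrin chain, and CDCA7, which is needed for maintenance of DNA methylation with the remodeller HELLS. The run of 5.15 Mb on 6q, chr6:106200001-111350000, held FOXO3, a transcription factor downstream of insulin signalling. The run of 5.0 Mb on 21q, chr21:34500001-39500000, held 28 genes, among them the transcription factor genes RUNX1 and ERG and the kinase gene DYRK1A. A second run on 2q, of 4.8 Mb at chr2:233450001-238250000, held the UGT1A genes of glucuronidation and had A1 on both sides. The run of 4.65 Mb on 1q, chr1:228650001-233300000, held AGT, the precursor of angiotensin. The second long run on 14q, of 4.55 Mb at chr14:67350001-71900000, held RAD51B, a gene of homologous recombination. The run of 4.55 Mb on 4q, chr4:73700001-78250000, held the CXCL chemokine genes and the EGF-receptor ligand genes EREG and AREG. The run of 4.35 Mb on 5q, chr5:77000001-81350000, held MSH3, a mismatch repair gene. Gene density in these 10 runs was 5.6 to 9.67 genes per Mb, so none exceeded the mean of all A2 bins given below.

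A2 runs met mostly V+VI and A1 along the chromosome. Each run has 2 edges, and of the 2822 edges 2455 met a clustered bin and 367 an unclustered one. V+VI was the neighbour at 1772 of the clustered edges (72.2%, interval 70.4% to 73.9%) and A1 at 649 (26.4%, interval 24.7% to 28.2%). B2/B3, the largest cluster, was the neighbour at 25 edges (1.02%) and B4 at 9 (0.367%). Seen from the other side, 649 of the 651 edges of A1 with another cluster were with A2 (99.7%). The same share was 44.9% of 3947 edges for V+VI, 1.16% of 2162 for B2/B3 and 8.41% of 107 for B4. In these bins A1 thus met V+VI directly at 1 edge.

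V+VI flanked 769 A2 runs (54.5%) on both sides, and A1 flanked 244 (17.3%) on both sides. Both kinds had a median of 2 bins. The 90 runs with A1 on one side and V+VI on the other (6.38%) had a median of 17.5 bins. Intervals here cover counting only, since runs of one clustering are not independent samples.

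**Figure D3:**
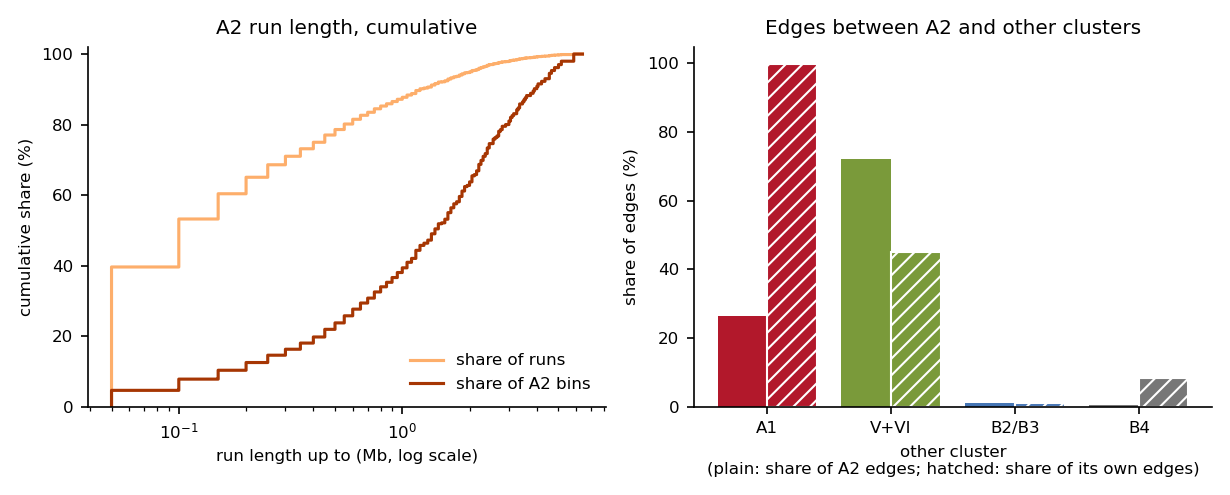
Left, cumulative share of the 1411 A2 runs and of the 12091 A2 bins (y axis, percent) by run length (x axis, Mb, log scale). Right, for each other cluster, its share of the clustered A2 edges (plain bars). Hatched bars give the share of its own edges with another cluster that meet A2, so edges with unclustered bins are left out. Runs under 1 Mb are most runs, while runs of 1 Mb or more hold 62.1% of the bins. Of the A1 edges with another cluster, 99.7% meet A2.

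With 3 or 5 clusters A2 did not stay wholly apart from A1 and V+VI. The deposited table gives codes for 17 numbers of clusters from 3 to 64. With 3 clusters, 6198 A2 bins (51.3%) shared a code with all A1 bins and 5888 (48.7%) shared a code with most V+VI bins. With 5 clusters, 9350 A2 bins (77.3%) fell in code 3, of which A2 made up 90.4%. Another 2116 (17.5%) lay in code 2, the main code of V+VI, and 622 (5.14%) in code 4, the code of A1. With 8 clusters the bins of code 6 stayed together to 94.7% and those of code 7 to 99.4%. The main A1 code then held 0.761% of A2 bins and the main V+VI code 0.165%. With 10 clusters the bins of code 6 stayed together to 99.1% and those of code 7 to 99.8%. With 64 clusters A2 bins were spread over 27 codes, 13 of which held 90% of them. The table holds no distance of a bin to its cluster's centre, so bins near the boundary of A2 can be seen only by such changes of code.

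The remaining columns of the table are indices that sort the bins rather than measurements. The order column of the clustering into 9 sorts bins of codes 6 and 7 by distance from the centromere. Spearman correlations of a bin's place in that order with its distance were 0.999988 and 0.999998. In 17 of 17 order columns bins were sorted first by code. No value of contact strength per bin could be read from them.

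Genes were counted in the bin of their leftmost coordinate in RefSeq. Of 15931 protein-coding genes in clustered bins, 5904 (37.1%) lay in A2, more than in any other cluster. A2 had 9.77 genes per Mb (95% exact Poisson interval 9.52 to 10.0), against 25.6 in A1, 6.15 in V+VI, 1.72 in B2/B3, 18.3 in B4 and 6.92 in all clustered bins. No gene had its leftmost coordinate in 63.1% of A2 bins, against 30.4% of A1 bins and 74.1% of V+VI bins. Another 28.4% of A2 bins held 1 gene. The intervals cover counting only, and neighbouring genes are not independent.

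Within A2, density differed with the neighbour and the code. Bins of code 6 had 11.2 genes per Mb and bins of code 7 8.33. A2 bins touching A1 had 15.2 genes per Mb (interval 13.7 to 16.7), and those touching V+VI only had 9.16 (interval 8.47 to 9.90). On the far side of these edges, A1 bins touching A2 had 20.7, below the A1 mean, and V+VI bins touching A2 had 7.83, above the V+VI mean. In runs of 1 Mb or more, A2 bins at the edge had 10.9 genes per Mb, those 1 to 4 bins inside had 10.4, those 5 to 9 bins inside had 9.63, and those 10 or more bins inside had 7.79 (interval 7.40 to 8.19). The 622 A2 bins that shared the A1 code in the clustering into 5 had 20.2 genes per Mb. The 9350 in the main A2 code had 8.81, and the 2116 in the main V+VI code had 10.9.

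The 5 A2 bins with most genes were on 6p, 14q and 2p. The bin at chr6:27800001-27850000 held 9 histone genes, and that at chr6:26000001-26050000 held 8, among them H1-1 and H3C1. The bin at chr14:24200001-24250000 held 8 genes, among them NEDD8, a ubiquitin-like modifier, and TINF2, a telomere protein of shelterin. Adjoining bins at chr2:74450001-74500000 and chr2:74500001-74550000 held 7 each. They include INO80B, a subunit of the INO80 remodeller, and PCGF1, a Polycomb subunit.

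A2 genes were of intermediate length. The median was 30.0 kb in A2, with quartiles of 11.2 and 71.8 kb, against 14.7 kb in A1, 40.3 kb in V+VI, 44.7 kb in B2/B3 and 25.3 kb in B4. Genes of code 6 had a median of 26.5 kb and genes of code 7 36.9 kb. Genes of 200 kb or more made up 5.98% of A2 genes (353), against 0.933% in A1 and 10.9% in V+VI. Of the genes with their leftmost coordinate in A2, 5326 (90.2%) lay wholly in A2. The longest of these was LRMDA, a melanocyte differentiation gene of 1129 kb on chromosome 10. VPS13B, a lipid transfer protein gene on chromosome 8, spanned 864 kb, and RAD51B spanned 863 kb. KCNMA1, the large-conductance calcium-activated potassium channel, spanned 768 kb, and the receptor tyrosine kinase gene ALK 729 kb. The others were BCAS3 with 715 kb, the cell polarity gene PARD3 with 706 kb, TTC28 with 702 kb, THSD4 with 686 kb and EXOC6B, a subunit of the exocyst, with 650 kb.

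**Figure D4:**
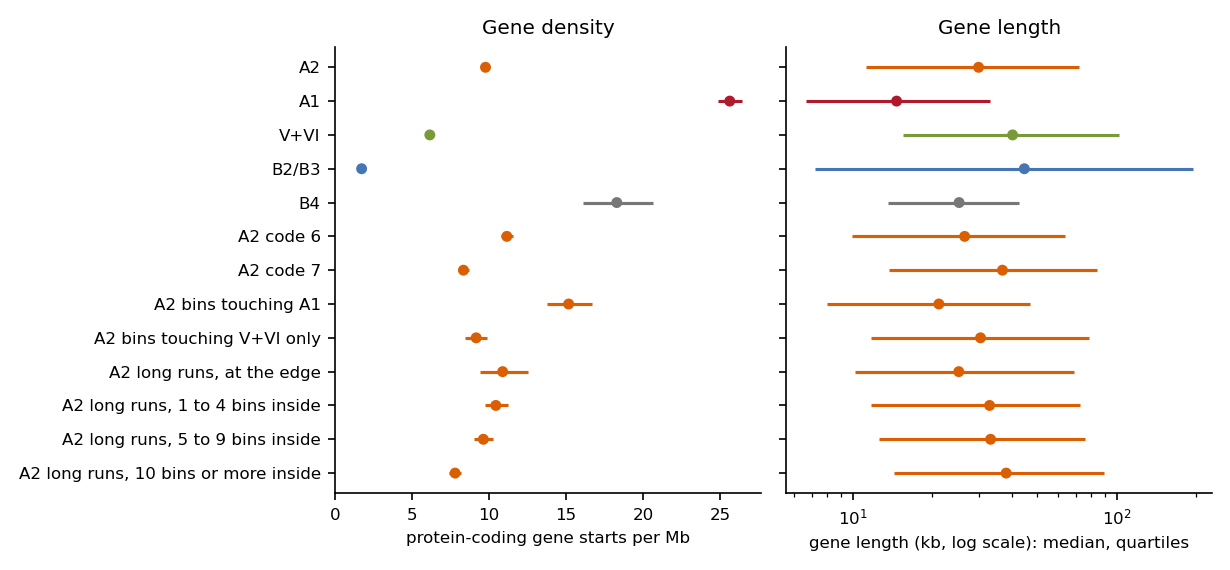
Left, protein-coding genes per Mb by leftmost coordinate (labelled gene starts), with 95% exact Poisson intervals. Right, gene length in kb (log scale), with points at the median and lines between quartiles. Rows are the 5 clusters, A2 first, and groups of A2 bins by code, by neighbour and by depth inside runs of 1 Mb or more. A2 lies between A1 and V+VI in both, and A2 density is 15.2 beside A1 and 7.79 deep inside long runs.

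Promoters of A2 genes were closer in CpG content to those of V+VI than to those of A1. A promoter of 300 bases was matched for 4693 A2 genes (79.5%). They had a median of 23 CpG and a median ratio of observed to expected CpG of 0.788, against 25 and 0.808 in A1, 22 and 0.787 in V+VI, and 6 and 0.407 in B2/B3. The ratio was 0.6 or more in 70.3% of A2 promoters, 73.2% in A1, 69.6% in V+VI and 38.7% in B2/B3. A2 promoters of codes 6 and 7 had the same median ratio to 3 digits, 0.788. DNMT3A, H2AC1, HOXD4, BCL9 and MUC13, whose sequences stand above, had ratios of 0.537, 0.798, 0.244, 0.163 and 0.397 over the 300 bases. MUC13, BCL9 and HOXD4 therefore fell in the A2 minority below 0.6 at these start sites, and DNMT3A did too.

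Of 28 gene lists with clustered members, 14 had a larger share in A2 than the 37.1% of all clustered genes. The lists were chosen with results of these data known, and no list was tested. Most housekeeping lists lay near 37.1%: 25 of 66 cytosolic ribosomal protein genes (37.9%), 28 of 71 genes of the respiratory chain and ATP synthase (39.4%), 14 of 32 proteasome genes (43.8%) and 22 of 67 mitochondrial ribosomal protein genes (32.8%). Of the cytosolic ribosomal protein genes 33 lay in A1.

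The genes of DNA methylation lay mostly in A2, 12 of 18 (66.7%), each in a bin and a run of its own. DNMT1, the target of the degron, lay at chr19:10133346-10194953 on 19p in a run of 0.6 Mb between V+VI and A1. It was 1 of the A2 genes that shared the A1 code in the clustering into 5. DNMT3B, deleted in the knockout line, lay at chr20:32762385-32809356 on 20q in a run of 1.6 Mb, also between V+VI and A1. DNMT3A lay in code 7 on 2p in a run of 2.15 Mb. TET1 and TET3, which oxidise methylated cytosine, lay in A2, and TET2 lay in V+VI. MBD1 and MBD4, which bind methylated DNA, lay in A2, whereas MBD3 lay in A1 and MBD2 in V+VI. UHRF2, USP7 and PCNA were in A2, and UHRF1, which brings DNMT1 to hemimethylated DNA, was in A1. CDCA7 and the methyl-binding zinc finger gene ZBTB38 were in A2. HELLS, a remodeller, and TDG, a glycosylase, were in V+VI.

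Of 69 replication-dependent histone genes found, 58 lay in clustered bins. The unclustered ones, among them H2BC18 and H2AC21, lay together on chromosome 1. Of the 58 clustered genes, 50 were in A2 (86.2%). The 50 lay in 9 bins of 2 runs on 6p, between 31.3 and 33.45 Mb from the centromere and all with code 6. Of the other clustered genes, 6 were in V+VI, among them H2BC11 and H2AC12 between the A2 runs. H2AC25 and H2BC26 on chromosome 1 were in A1. Of 46 A2 histone promoters with a sequence, 30 (65.2%) held TATAAA on either strand, against 8.27% of all A2 promoters and 12.02% of 27305 promoters in the table. CCAAT on either strand was in 39 (84.8%), against 34.1% of A2 promoters and 35.7% of all. Neither motif contains the other. Such matches describe letters in the window only. The H2AC1 bases shown above, chr6:25726563-25726812, run into the adjoining gene H2BC1, whose leftmost coordinate is 25726777. Windows of adjoining histone genes can thus hold the same bases, and a motif on either strand may be counted again for the neighbour. The 46 promoters may therefore not all be separate sequences. How far shared bases raise the histone shares was not tested.

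HOX genes, which set position along the body axis, were in A2 for 30 of 35 (85.7%), in 10 bins of 5 runs. All 11 HOXA genes lay on 7p at chr7:27050001-27200000, within a run of 41 bins with V+VI on both sides. All 9 HOXC genes lay on 12q, at chr12:53900001-54050000. On 17q HOXB1 to HOXB6 lay in a run of 5 bins and HOXB13 in a run of 2 bins, both with A1 on both sides, and HOXB7, HOXB8 and HOXB9 between them were in A1. On 2q HOXD4, HOXD3 and HOXD1 were in A2 and HOXD13 and HOXD12 in V+VI, while 4 HOXD genes were unclustered. Since these genes adjoin, the 30 genes amount to 5 stretches of A2.

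Signalling and cell cycle genes were spread over A2 and its neighbours. Of the Wnt pathway, which drives most colorectal tumours, 12 of 32 genes were in A2 (37.5%). They included the receptor genes FZD3, FZD7, FZD9 and LRP6, GSK3B and AXIN2 of the destruction complex, the casein kinase gene CSNK1A1 and the nuclear factor genes TCF7, TCF7L1 and BCL9. The ubiquitin ligase genes RNF43 and ZNRF3, which remove Wnt receptors, were also in A2, whereas APC and CTNNB1 were in V+VI. Of genes of the TGF-beta and BMP pathway, 10 of 25 were in A2 (40.0%), among them the receptor genes TGFBR1, ACVR2B and BMPR2 and the effector genes SMAD3, SMAD6 and SMAD7. Of cell cycle genes, 15 of 34 were in A2 (44.1%), among them the cyclin-dependent kinase genes CDK2 and CDK4 and their inhibitor genes CDKN1B and CDKN2C. Of repair genes, 11 of 30 were in A2 (36.7%), among them PALB2, RAD50 and MSH3.

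Genes that shape chromatin divided between A2, A1 and V+VI. Of cohesin and CTCF genes, 5 of 11 were in A2 (45.5%): the loader genes NIPBL and MAU2, PDS5A, and the acetyltransferase genes ESCO1 and ESCO2. CTCF itself was in A1. Of HP1, H3K9 methyltransferase and lamina genes, 5 of 16 were in A2 (31.3%), with CBX3 and CBX5 encoding HP1 proteins and SUV39H2, TRIM28 and TASOR acting in silencing. Of Polycomb genes, 8 of 23 were in A2 (34.8%), among them BMI1, JARID2 and PCGF1. Of nucleoporin genes, 14 of 27 were in A2 (51.9%). Of colon epithelium genes, 10 of 25 were in A2 (40.0%), among them CDX1, HNF4A and GATA6, transcription factor genes of the gut, and VIL1, the gene of villin. The adhesion gene CDH1 was in A1.

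Lists of cell surface and tissue-specific genes ranged widely in A2. Of solute carriers, 134 of 321 were in A2 (41.7%), of RAB GTPases 23 of 50 (46.0%) and of integrins 8 of 25. Of potassium channel genes, 24 of 82 were in A2 (29.3%), of collagens 5 of 35 (14.3%) and of cadherins 3 of 28 (10.7%). Of glutamate and GABA receptor genes, 3 of 30 were in A2 (10.0%), of olfactory receptor genes 26 of 251 (10.4%) and of chromosome 19 zinc finger genes 22 of 224 (9.82%). The last were mostly in B4, with 115. None of 44 keratin genes lay in A2, all being in A1, and none of 53 clustered protocadherin genes or 15 ephrin and Eph receptor genes did. Keratin and protocadherin genes adjoin in a few blocks, so these counts rest on few stretches of the genome. No member of the list of MAGE cancer-testis genes (families MAGEA, MAGEB and MAGEC) was among the autosomal genes.

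**Figure D5:**
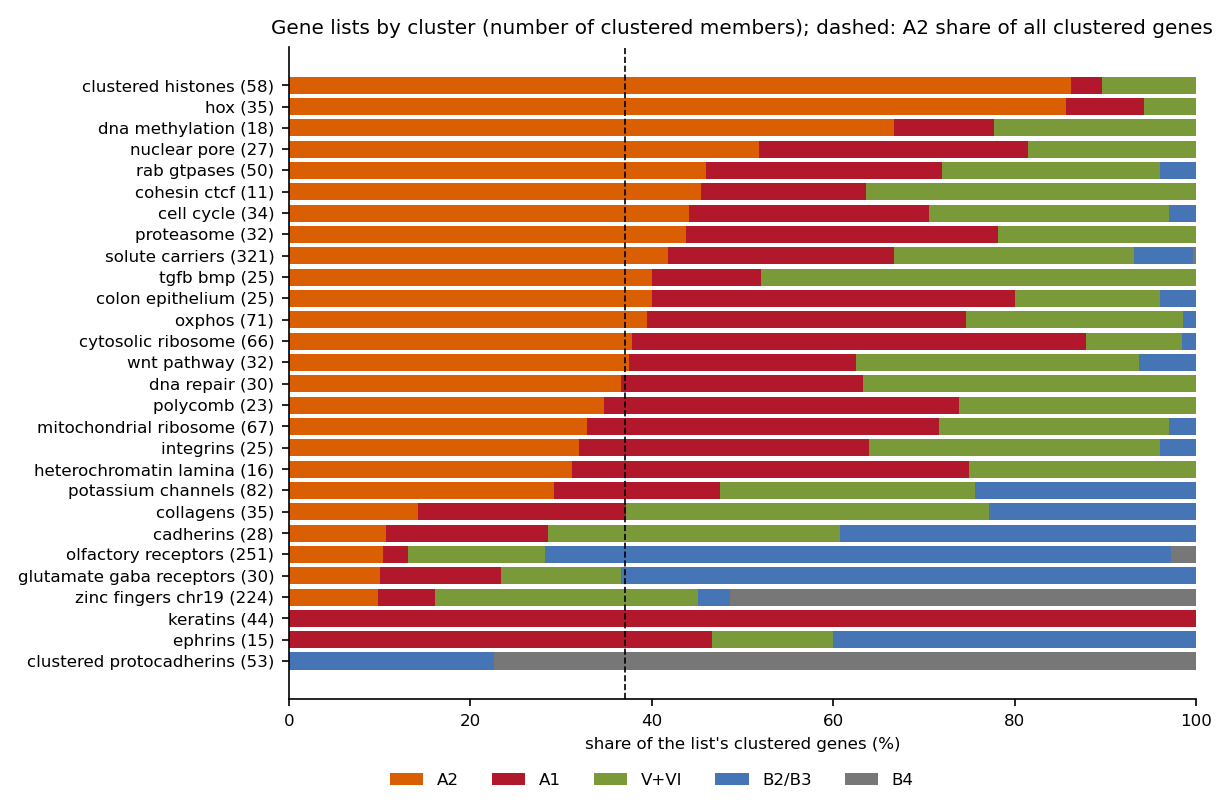
Share of the clustered members of 28 gene lists (x axis, percent) in A2, A1, V+VI, B2/B3 and B4, with the number of clustered members beside each list. The dashed line is the A2 share of all clustered genes, 37.1%. Clustered histones and HOX genes lie highest in A2 at 86.2% and 85.7%, and keratins, ephrins and clustered protocadherins have none.

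The other libraries have no clusters, so arms with more A2 were compared with the rest only through contact by arm. For each of 38 arms, the share at 10 Mb or more was taken among contacts within the arm from 100 kb on. On 18p, the arm highest in A2, it was 1.24% in untreated DNMT1-AID cells, 1.04% after 4 d and 1.30% after 10 d. On 9q it was 12.03%, 9.80% and 12.7%. After 4 d of auxin in DNMT1-AID cells, the log2 ratio to untreated cells lay between -0.30 and -0.26 in the 5 highest A2 arms. In the 5 lowest it lay between -0.59 and -0.15, where 19p was lowest. The medians of this log2 ratio were -0.26 in the highest and -0.16 in the lowest. The Spearman correlation of this ratio with the A2 share over 38 arms was -0.53, and it was -0.76 with the A1 share and 0.57 with arm length. After 10 d the values were 0.20, -0.35 and 0.61, and after washout 0.23, -0.37 and 0.21. The correlation with the A2 share after 10 d was 0.12 with balanced sums, and that after washout was 0.46 with a boundary of 20 Mb. These 3 comparisons share the untreated library, with which the clusters were deposited and whose contacts may have made them.

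In knockout cells, whose libraries have no deposited clusters, the correlation with the A2 share was -0.39 after 4 d and -0.19 after 10 d. After 10 d it was -0.0042 with a boundary of 20 Mb. With the A1 share it was -0.68 and -0.13, and with arm length 0.25 and 0.65. The log2 ratio after 4 d lay between -0.06 and 0.16 in the 5 arms highest in A2, with a median of 0.0014. In the 5 lowest it lay between -0.23 and 0.14, with a median of 0.11, so the ranges overlapped. After 10 d it lay between 0.09 and 0.26 and between 0.04 and 0.29, with medians of 0.20 and 0.25. Arms share a library and its depth, and their base composition was not compared, so these correlations describe 38 arms and were not tested. The parts of the A1 share and of arm length in them were not tested.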

How the data were processed

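Hi-C libraries were made with an Arima kit, per the labels' protocols, and reads were mapped with BWA to hg38, per the submitters' processing notes. Not given in the sources used here are the BWA version and the program and input of the k-means clustering. The deposited tables give contact counts, not normalised, and the authors' balanced signal by separation in 50 kb steps from 100 kb on, per the file headers. The deposited cluster codes are labels without a unit. Runs, neighbours and arm positions were computed from bins named A2, with arm boundaries from the number of separations per arm. Genes were placed by their leftmost coordinate in RefSeq on GRCh38.p14, the assembly of hg38, as the table has no strand: 15931 of 19126 autosomal protein-coding genes (83.3%) lay in clustered bins. Exact binomial and Poisson intervals (SciPy 1.17.1, pandas 2.3.3) cover counting error only. Run lengths, A1 edges of runs and the placing of genes in bins were tested on simulated clusters. Arm positions, promoter matching and contact shares were not. Alternatives changed gene placement, run definition, chromosome 19, cluster naming and contact boundary. The members and the gene lists were chosen with earlier results of these data known. Named were the 5 highest and lowest arms, the 10 longest runs and genes, the 5 densest bins and A2 members of lists, from longer lists as examples.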

Additional observations from a re-analysis of the deposited data

How the results depend on the processing

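Of 29 alternatives of the main results 20 stayed within the counting interval or tolerance, 8 moved and 1 reversed. All 56 alternatives of single gene lists stayed within their intervals, but these are wide for short lists. Single lists still crossed the main 37.1% of all clustered genes. By gene midpoint, cytosolic ribosomal protein genes went from 37.9% to 34.3% and Polycomb genes from 34.8% to 39.1%. Which lists lie above 37.1% thus depends on gene placement. The A2 share of clustered bins was 25.4% without runs of 1 bin and 22.5% as the main A2 code of the clustering into 5. V+VI made up 70.3% of the clustered A2 edges without runs of 1 bin. The median A2 position relative to all clustered bins reversed: it was 0.018 of the arm length farther from the centromere as a fraction and -2.15 Mb, nearer to it, in Mb. Gene density was 26.2 per Mb with all annotated genes, where more kinds of gene are counted by construction, and 9.39 without chromosome 19, and the median gene length was then 32.7 kb. With a boundary of 20 Mb, which 35 arms reached, the correlation with the A2 share was 0.46 after washout and -0.0042 after 10 d in knockout cells. The causes of the other changes were not tested. Balanced sums kept the direction of all 5 correlations, with 0.12 after 10 d in DNMT1-AID cells. The alternatives chosen after seeing the data were run length from the deposited intervals, gene density, gene length and gene lists by the start site of the promoter table, and the edges without chromosome 19 (73.4% V+VI). The alternative of adding chromosome X was not run, since no bin of X is in the table. No paired analysis was possible because each group has 1 library. One clustering of 1 library, without replicates, and bins not clustered limit every value. How depth affects the clustering was not tested.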

Other observations

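Other kinds of gene were also counted in A2. A2 held 4653 of 14532 clustered lncRNA genes (32.02%), at 7.70 per Mb against 9.93 in A1, 6.61 in V+VI and 4.37 in B2/B3. Density thus differed less between clusters for lncRNA genes than for protein-coding genes, and this difference was not tested. For miRNA genes A2 had 0.883 per Mb, against 2.21 in A1 and 0.554 in V+VI. A2 held 392 of 930 snoRNA genes (42.2%) and 130 of 295 tRNA genes (44.1%), the largest share of tRNA genes in 1 cluster by count, and B2/B3 had 0.0059 tRNA genes per Mb. Pseudogenes had nearly equal density in A2 and A1, with 6.246 and 6.250 per Mb.

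From 140 Mb on from the centromere, 135 of 166 clustered bins were A2 (81.3%) and the other 31 A1. This is the tip of 2q alone, the arm that reaches this distance, and so describes 1 stretch.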
